A study of Mus musculus with 12 samples.

Results

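The group described here holds 10 genes: the nuclear receptors Ppara, Pparg, Ppard and Rxrg, the coactivators Ppargc1a and Ppargc1b, the zinc finger regulator Prdm16, and the estrogen-related receptors Esrra, Esrrb and Esrrg. They were taken by gene symbol, and all 10 of 10 symbols matched exactly 1 of the 32285 genes in the deposited count matrices. Single-nucleus RNA sequencing counts were deposited for 12 libraries, with 1 library in each of 12 groups, from male C57BL/6J mice fed normal chow. Mice housed at 22 °C gave mPRAT and iBAT of 3 ages (1, 2 and 6 months), lPRAT of 2 ages (2 and 6 months) and 6-month iWAT, and 6-month mice kept at 4 °C for 3 days gave cold mPRAT, iBAT and iWAT. The labels do not spell out these names: mPRAT and lPRAT are commonly the medial and the lateral perirenal fat, iBAT the interscapular brown fat and iWAT the inguinal white fat. No genetic change or drug is named in the labels, the number of mice behind each library is not stated, and the 6-month libraries carry an age of 16 weeks in another label.

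PPAR proteins are ligand-activated receptors that bind DNA as heterodimers with a retinoid X receptor and switch on genes of fat storage and fatty acid oxidation. PGC-1 proteins do not bind DNA themselves but are recruited by PPARs and by the estrogen-related receptors, which have no known natural ligand of the classical kind and drive genes of oxidative phosphorylation. PRDM16 joins these complexes in brown and beige adipocytes, the cells that burn fuel through the uncoupling protein Ucp1, and in brown fat cold acts through noradrenaline and cyclic AMP, which induces Ppargc1a.

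Each comparison below sets 1 library against 1 other library, so there was no replicate, no test and no p-value. Levels are CPM, counts scaled to a total of 1e+06 UMIs, summed over the adipocyte-like nuclei of a library, a class built from marker genes. Of 96649 nuclei kept, 65029 were adipocyte-like, between 1933 and 15339 per library, with 2520524 to 70024079 UMIs. All 95% intervals cover counting error only, and not the differences between animals, dissections or library preparations that any pair of libraries also contains. A regulator was counted as apart between libraries at a CPM ratio of at least 2 in either direction, and the share of all measured genes that passed the same limit is given beside each first count. Levels of different genes are not compared with each other, because UMI counts near transcript ends and within long introns depend on the gene.

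Cold mPRAT stood apart. In that library 66.0% of barcodes were over the mitochondrial limit of 10%, against 0.0877% to 22.1% in the other 11. Of its 2148 adipocyte-like nuclei, 1167 fell in cluster 15, which held 1220 nuclei in all and had Gstm1, S100a6, Sprr1a and the urothelial gene Upk1a among its 10 leading genes. Gathering in a cold cluster was not particular to mPRAT. Of the adipocyte-like nuclei of cold iBAT, 97.4% were in cluster 2, against 0.58% of those of iBAT at 6 months at room temperature. The 8 epithelial markers summed to 166 CPM in the adipocyte-like nuclei of cold mPRAT, with none at 0, and to 4.72 CPM in mPRAT at 6 months at room temperature. They summed to 173 CPM in cluster 15 of that library and to 152 and 435 CPM in its clusters 4 and 6, and without cluster 15 the 981 nuclei left still had 159 CPM. The part of these markers in the cold mPRAT results was not tested. Levels and cold ratios of mPRAT are given with cluster 15 first and then without it. In cold mPRAT this cluster had 1156 CPM of Ucp1, against 28.9 CPM in cluster 4. Only 7 nuclei of mPRAT at 6 months at room temperature were in it. Leaving it out thus takes Ucp1-rich nuclei almost only from the cold side, where Ucp1 went from 731 to 265 CPM. The values without it show how far a ratio rests on these nuclei and are no check of a cold effect. Between 3 and 76 barcode sequences were shared by each of the 66 pairs of libraries.

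Cyclic AMP acts on promoters through a short element whose core is TGACG. Start-site windows are shown for Ppargc1a, Esrrb, Ppard and Ppara because theirs are the windows among those of the 10 regulators that hold this core, whatever their ratios. The windows are from RefSeq on GRCm38.p6 and run from 250 bases before to 50 bases after the annotated start. Capitals mark each TGACG on either strand. The sequences read 5′ to 3′ along the gene's strand:
Ppargc1a, chr5:51567676-51567975, minus strand: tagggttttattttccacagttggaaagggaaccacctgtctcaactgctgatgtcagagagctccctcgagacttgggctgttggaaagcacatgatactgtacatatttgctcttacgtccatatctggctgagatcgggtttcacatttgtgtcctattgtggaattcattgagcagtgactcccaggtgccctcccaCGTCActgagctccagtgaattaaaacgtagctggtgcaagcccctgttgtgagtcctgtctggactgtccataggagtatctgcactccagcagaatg
Esrrb, chr12:86360867-86361166, plus strand, the more upstream of its annotated starts: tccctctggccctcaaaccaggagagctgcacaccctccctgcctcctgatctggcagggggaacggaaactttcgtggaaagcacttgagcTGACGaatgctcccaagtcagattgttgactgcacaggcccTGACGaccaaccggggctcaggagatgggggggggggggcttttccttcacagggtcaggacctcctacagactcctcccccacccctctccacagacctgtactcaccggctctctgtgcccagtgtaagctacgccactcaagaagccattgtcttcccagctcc
Ppard, chr17:28232504-28232803, plus strand: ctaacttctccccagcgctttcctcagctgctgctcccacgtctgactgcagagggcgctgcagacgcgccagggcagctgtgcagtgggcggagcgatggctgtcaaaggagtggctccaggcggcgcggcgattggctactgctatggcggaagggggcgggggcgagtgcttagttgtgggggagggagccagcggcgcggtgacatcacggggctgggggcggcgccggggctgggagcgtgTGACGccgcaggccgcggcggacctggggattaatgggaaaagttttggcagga
Ppara, chr15:85735526-85735825, plus strand: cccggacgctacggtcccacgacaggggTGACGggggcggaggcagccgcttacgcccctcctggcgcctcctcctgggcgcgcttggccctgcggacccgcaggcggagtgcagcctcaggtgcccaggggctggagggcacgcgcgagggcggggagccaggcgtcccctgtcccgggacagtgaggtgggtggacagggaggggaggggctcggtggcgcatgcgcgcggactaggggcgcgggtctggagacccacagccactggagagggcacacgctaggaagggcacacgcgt
Of the 10 genes, 9 had a window, 16 windows in all, and Ppargc1b had none. TGACG was found in 4 of the 16 windows, 1 each of Ppargc1a, Esrrb, Ppard and Ppara, against 20.8% of all 32851 windows in the table. In cold iBAT, Esrrb and Ppard, with the core, had the highest log2 ratios of the 10 genes, and Ppara, also with it, was lower. Ppargc1a, the other gene with the core, was at 0.38, below Esrrg, Rxrg and Esrra without it, at 0.64, 0.49 and 0.46. Any link between the core and the cold ratios was not tested. The full element TGACGTCA, present in 1.79% of all windows, was found in 0 of the 16. The same held for the estrogen-related receptor element TCAAGGTCA, in 0.423% of all windows, and for the PPAR and RXR direct repeat, written AGGTCANAGGTCA with N for any base, in 0.0396%. These are letters in short windows and say nothing of binding.

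Ppara encodes PPARα, the receptor for genes of fatty acid oxidation (chr15:85734983-85802819, GRCm38, plus strand). In iBAT its level with age was 8745, 7501 and 4791 CPM, and in cold iBAT it was 2263. In mPRAT it was 5365, 3971 and 1833 CPM at 1, 2 and 6 months and 1836 in the cold, or 907 without cluster 15. In lPRAT it was 453 CPM at 2 months and 127 at 6 months, and in iWAT 212 at room temperature and 486 in the cold. The 68.9-fold span between iBAT at 1 month and lPRAT at 6 months was exceeded only by that of Prdm16, at 69.1-fold, and in each of the 3 depots sampled at more than 1 age the older library was lower. The intervals of neighbouring libraries overlapped only for mPRAT at 6 months with and without cold, where cluster 15 was kept, and for cold iWAT with lPRAT at 2 months.

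Pparg encodes PPARγ, the receptor that drives adipocyte formation (chr6:115360951-115490399, plus strand). Its level was 3390, 4081 and 4779 CPM in iBAT at 1, 2 and 6 months and 3493 in cold iBAT. In mPRAT it was 2436, 3294 and 4159 CPM at the same ages and 3478 in the cold, or 3498 without cluster 15. In lPRAT it was 3287 and 2560 CPM, and in iWAT 2495 at room temperature and 3682 in the cold. Pparg thus spanned only 1.96-fold over the 12 libraries. It was higher at each older age in mPRAT and iBAT, where Ppara was lower at each older age.

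Ppard, for PPARδ, a receptor found in most tissues (chr17:28232700-28301474, plus strand), lay between 68.1 CPM in iBAT at 6 months and 163 CPM in cold iBAT. The other iBAT levels were 128 and 121 CPM at 1 and 2 months. In mPRAT it was 126, 90.5 and 68.1 CPM with age and 104 in the cold, or 83.3 without cluster 15, in lPRAT 102 and 86.9, and in iWAT 89.2 and 84.0. Rxrg, for a retinoid X receptor of the kind that pairs with PPARs (chr1:167598384-167639623, plus strand), gave few counts. It was 63.2, 47.4, 27.8 and, in the cold, 39.0 CPM in iBAT, 38.5, 33.2, 30.7 and 33.6 CPM in mPRAT, with 30.6 in the cold without cluster 15, 11.5 and 30.5 CPM in lPRAT and 43.6 and 34.8 CPM in iWAT. The lPRAT value at 2 months rested on 29 counts, and most neighbouring libraries in the order of Rxrg had overlapping intervals.

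Ppargc1a encodes PGC-1α, the cold-inducible coactivator of mitochondrial biogenesis (chr5:51454250-51567726, minus strand). It was 500 CPM in the youngest iBAT library, 1122 and 1126 in the older ones and 1462 in the cold. In mPRAT it was 212, 634 and 644 CPM at the 3 ages and 1508 in the cold, the highest of the 12 libraries. Without cluster 15 the cold mPRAT level was 724 CPM, below 3 of the 4 iBAT libraries. In lPRAT it was 34.5 and 37.0 CPM, and in iWAT 127 and, in the cold, 233. In both mPRAT and iBAT the step in these full sums lay between 1 and 2 months.

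Ppargc1b encodes PGC-1β, a coactivator of the same family (chr18:61298136-61400431, minus strand). It was 4532, 4637 and 3645 CPM in iBAT with age and 3278 in the cold, and 2315, 2116 and 1569 CPM in mPRAT with age and 1969 in the cold, or 890.2 without cluster 15. In lPRAT it was 176 and 191 CPM, and in iWAT 234 and 512. Unlike Ppargc1a, it showed no step between 1 and 2 months.

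Prdm16 encodes the brown and beige fat regulator PRDM16 (chr4:154316125-154636873, minus strand). Its level was 2187, 2087, 1245 and, in the cold, 1509 CPM in iBAT, and 1079, 1025, 662 and 793 CPM in mPRAT, the last being 501 without cluster 15. It was 576 CPM in iWAT and 429 in cold iWAT, but only 38.5 and 31.6 CPM in lPRAT. All 4 iBAT libraries were above all 4 mPRAT libraries, and the lPRAT libraries were lowest. The mPRAT libraries were above both iWAT libraries with cluster 15, but without it cold mPRAT lay below iWAT at room temperature.

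Esrra encodes ERRα (chr19:6910977-6921813, minus strand). It was 309, 274, 211 and, in the cold, 290 CPM in iBAT, and 233, 174, 152 and 261 CPM in mPRAT, the last being 172 without cluster 15. In lPRAT it was 146 and 60.6 CPM, and in iWAT 44.2 and, in the cold, 133. Esrrg, for ERRγ, a receptor of highly oxidative tissues (chr1:187608791-188214885, plus strand), was 3110, 3037, 2589 and 4031 CPM in iBAT and 1519, 1519, 1163 and 1943 CPM in mPRAT, the last being 743 without cluster 15. In lPRAT it was 67.0 and 94.6 CPM, in iWAT 76.9 and in cold iWAT 392. The cold library was the highest of its depot for Esrrg in iBAT and iWAT, and in mPRAT it was the highest with cluster 15 and the lowest without it.

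Esrrb, for ERRβ, is best known from stem cells (chr12:86361117-86521628, plus strand). At room temperature it was 5.93, 4.41 and 3.98 CPM in mPRAT, 10.99, 7.64 and 7.67 CPM in iBAT, 3.57 and 2.05 CPM in lPRAT and 3.01 CPM in iWAT. In the cold it was 22.7 CPM in mPRAT, from 238 counts, 55.1 CPM in iBAT, from 3856 counts, and 2.97 CPM in iWAT, from 49 counts. The cold iBAT and cold mPRAT intervals overlapped no other library, but without cluster 15 the cold mPRAT level was 7.39 CPM, from 37 counts. For Esrrb the 95% Poisson intervals reached up to 89.8% from the value, for Rxrg up to 43.6%, and for the other 8 genes at most 23.4%.

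**Figure D1:**
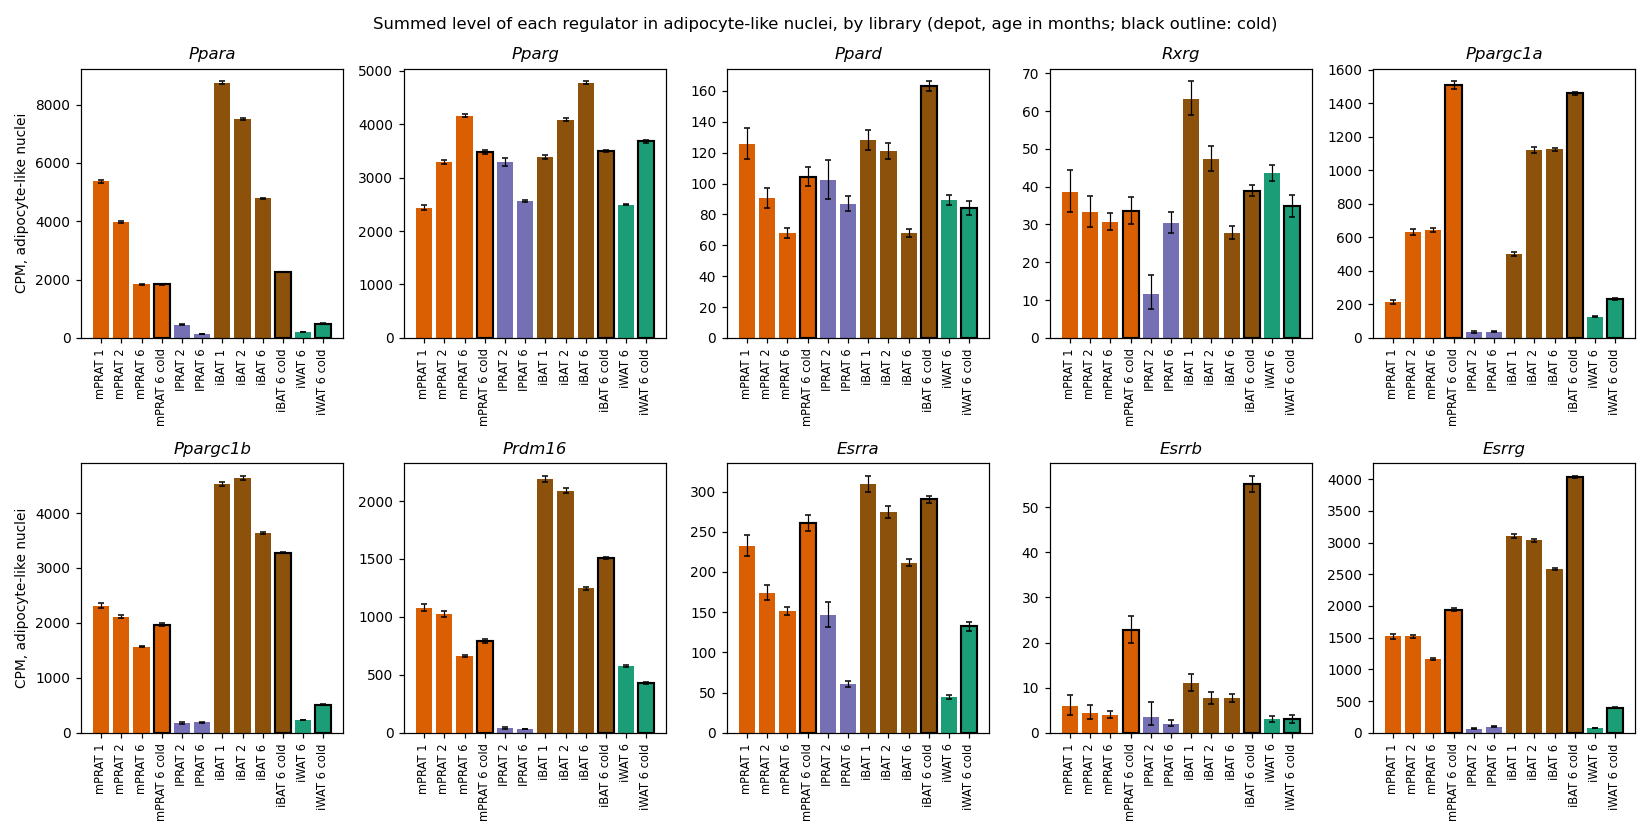
Each panel plots 1 gene, with the CPM of the summed adipocyte-like nuclei on a linear axis from 0 and the 12 libraries by depot and age in months on the horizontal axis; colours stand for depots, black outlines for cold libraries and error bars for 95% Poisson intervals of counting error. Ppara is highest in young iBAT at 8745 CPM, Pparg stays between 2436 and 4779 CPM, and Esrrb stands out in cold iBAT at 55.1 CPM and in cold mPRAT at 22.7 CPM, a value that includes cluster 15.

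Age was compared within depots at room temperature. Median UMIs per adipocyte-like nucleus were 1721, 1677.5 and 6169.5 in mPRAT at 1, 2 and 6 months. In iBAT they were 1229, 1457.5 and 2151, and the part of depth in the age ratios was not tested. From 1 to 2 months, 1 of the 10 regulators in mPRAT was apart by at least 2-fold, against 10.5% of all measured genes, and 1 of 10 in iBAT, against 9.42%. It was Ppargc1a in both, with a log2 ratio of 1.58 (95% interval 1.48 to 1.67) in mPRAT and 1.17 (1.13 to 1.21) in iBAT. From 2 to 6 months, 1 of 10 was apart in mPRAT, Ppara at -1.12 (-1.14 to -1.09), against 17.1% of all genes, and 0 of 10 in iBAT, against 17.9%. Among nuclei with at least 1000 genes Ppara was at -0.94 and no longer apart. From 1 to 6 months, 2 of 10 were apart in each depot, against 20.9% in mPRAT and 20.9% in iBAT. They were Ppargc1a at 1.60 and Ppara at -1.55 in mPRAT, and Ppargc1a at 1.17 and Rxrg at -1.19 in iBAT, where Rxrg was at -0.96 with 10 CPM added to both levels. These shares are close to the background, and the medians of the 10 log2 ratios from 1 to 6 months were -0.57 in mPRAT and -0.53 in iBAT, against -0.02 and 0.02 over all genes.

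The 7 regulators named next were lower at 6 months than at 1 month in both depots with intervals that left out 0: Ppara, Ppard, Rxrg, Ppargc1b, Prdm16, Esrra and Esrrg. The share of all genes that met this rule is not given, so this count is not set against a background. Rxrg in mPRAT was at -0.33 (-0.56 to -0.09), and TMM scaling, which brought it to -0.13, moved it by more than that interval's distance from 0. Most of these differences were under 2-fold. Prdm16 had log2 ratios of -0.70 in mPRAT and -0.81 in iBAT, and Ppard -0.88 and -0.91. Pparg was higher at 0.77 and 0.50. Kidney tubule markers summed to 86.7 and 78.3 CPM in mPRAT adipocyte-like nuclei at 1 and 2 months and to 2.69 CPM at 6 months, and the 8 skeletal muscle markers to 30.04, 120 and 6.16 CPM in iBAT with age. The epithelial markers summed to 33.4, 59.8 and 4.72 CPM in mPRAT at 1, 2 and 6 months. The part of all these markers in the age ratios was not tested. In lPRAT from 2 to 6 months 3 of 10 were apart, against 27.1% of all genes: Ppara at -1.83 (-1.94 to -1.73), Esrra at -1.27 (-1.45 to -1.10) and Rxrg at 1.41 (0.87 to 2.00). Esrra was at -0.99 among nuclei with at least 1000 genes and Rxrg at 0.91 with 10 CPM added, so that neither call held in these settings. The younger lPRAT library was the shallowest, with a median of 890 UMIs in an adipocyte-like nucleus. Of its adipocyte-like nuclei 85.0% were in cluster 12, and of those of the older library 85.9% were in cluster 5. Ppara went from 496 to 176 CPM within cluster 12 and from 271 to 120 CPM within cluster 5, but was 302 and then 327 CPM in cluster 4, with 115 and 92 nuclei. Esrra had log2 ratios of -0.09, -1.07 and -0.69 in clusters 12, 5 and 4. Rxrg had 23 counts at 2 months in cluster 12 and 3 in cluster 5. The ASPC markers of adipose stem and progenitor cells summed to 294 and 141 CPM at 2 and 6 months in lPRAT, macrophage markers to 257 and 95.8 and mesothelial markers to 88.1 and 16.6, with none of these markers at 0, and their part in the ratios was not tested.

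Of the target lists, PPAR target genes held 5 of 23 measured genes higher and 0 lower by 2-fold in mPRAT from 1 to 6 months, with a median log2 ratio of 0.51 against -0.02 over all genes. In iBAT 6 of 24 were higher and 2 lower, with a median of 0.49. The shares past 2-fold in either direction were 21.7% of the list in mPRAT and 33.3% in iBAT, against the 20.9% of all genes in each. Of all genes, 8.52% were higher in mPRAT and 9.10% in iBAT, and 12.4% and 11.8% were lower. The higher part of the list was above the upward share in both depots. Gk, for glycerol kinase, was at 2.83 in mPRAT and 2.18 in iBAT. Cyp4a14, for a fatty acid hydroxylase and classical PPARα target, was at 3.76 in iBAT, where Ppara itself was lower. None of the 24 and 25 measured ERR and PGC-1 target genes passed 2-fold in mPRAT or iBAT over that interval. Among partners and coregulators Rxra was lower in both, at -1.38 and -1.36.

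Cold was compared with room temperature at 6 months. Median UMIs per adipocyte-like nucleus at room temperature and in the cold were 2151 and 6624 in iBAT. They were 6169.5 and 4402.5 in mPRAT and 6634.5 and 4713 in iWAT, and the part of depth in the cold ratios was not tested. In iBAT 3 of 10 regulators were apart, against 28.3% of all genes. Esrrb was 7.18-fold higher, a log2 ratio of 2.84 (2.68 to 3.02), Ppard was higher at 1.26 (1.20 to 1.32), and Ppara was lower at -1.08 (-1.09 to -1.07). Under TMM scaling Ppara was at -0.87 and not apart, which left 2 of 10, and the share of all genes under that scaling is not given. Ppargc1a was at 0.38 and Ppargc1b at -0.15, or 0.06 under TMM scaling, so the coactivators differed by less than 2-fold in the depot where Ucp1 went from 437 to 1469 CPM. ASPC markers summed to 103 CPM at room temperature and 19.5 CPM in the cold in these iBAT nuclei, and endothelial markers to 320 and 150 CPM. Their part in the cold ratios was not tested. In mPRAT 2 of 10 were apart, against 23.8%: Esrrb at 2.51 (2.16 to 2.87) and Ppargc1a at 1.23 (1.20 to 1.26). Without cluster 15, Esrrb was at 0.92 and Ppargc1a at 0.17, while Ppara went from 0.00 to -1.02, so that 1 of 10 was apart, against 18.1% of all genes.

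In iWAT 4 of 10 were apart, against 18.8% of all genes. Esrrg was 5.10-fold higher at 2.35 (2.29 to 2.42), Esrra 3.00-fold higher at 1.58 (1.49 to 1.68), Ppara at 1.20 (1.15 to 1.24) and Ppargc1b at 1.13 (1.08 to 1.17). Esrrb was at -0.02 (-0.54 to 0.48) there, an interval that holds small ratios in both directions. Prdm16 was at -0.42 in iWAT, 0.28 in iBAT and 0.26 in mPRAT, where it was at -0.40 without cluster 15. Esrrg went from 0.74 to -0.65 in mPRAT when cluster 15 was left out, and Ppargc1b from 0.33 to -0.82. Esrrb was thus apart in iBAT and, with cluster 15, in mPRAT, and Ppara was apart in iWAT and, under plain CPM scaling but not TMM, in the opposite direction in iBAT. The differences between depots in the cold ratios were not tested.

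**Figure D2:**
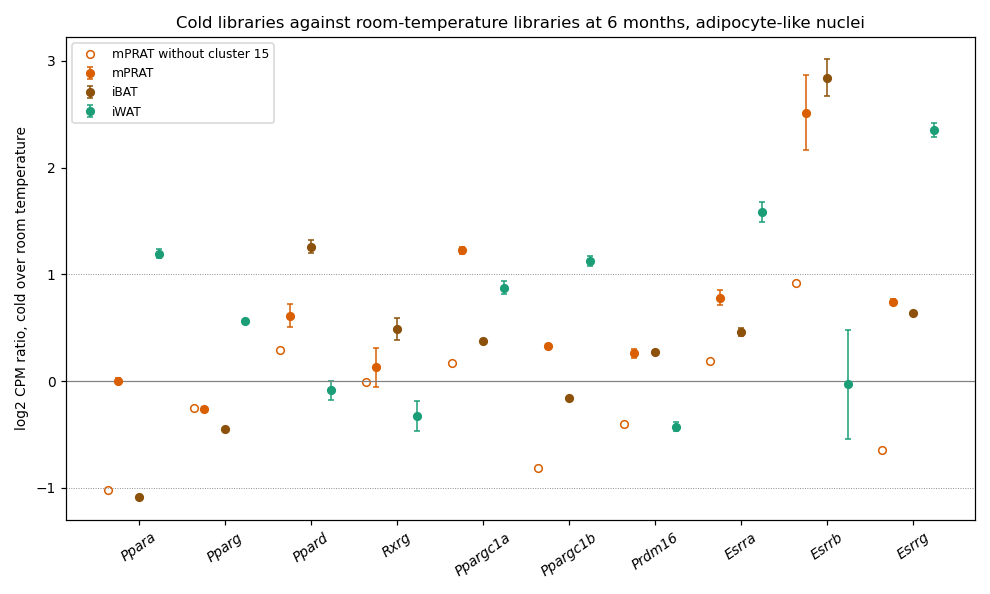
The log2 CPM ratio of the cold over the room-temperature library at 6 months is plotted for each gene, with 1 colour per depot, 95% intervals of counting error as bars and dotted lines at 2-fold; open circles give mPRAT without cluster 15. Esrrb is highest in iBAT at 2.84 and mPRAT at 2.51, and the open circle for Ppargc1a lies at 0.17 where the full mPRAT value is 1.23.

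ERR and PGC-1 target genes, which encode enzymes of the citrate cycle and subunits of the respiratory chain, had medians of 0.82 in mPRAT, 0.55 in iBAT and 0.43 in iWAT in the cold, against -0.04, -0.13 and -0.22 over all genes. Past 2-fold were 4 of 24 higher in mPRAT, 2 of 25 in iBAT and 2 of 24 in iWAT, and 0 were lower in each. These shares, 16.7%, 8% and 8.33% of the list, were below those of all genes past 2-fold in either direction. Of all genes, 10.7%, 10.3% and 4.44% were past 2-fold upward, so the list was above this share in mPRAT and iWAT and below it in iBAT. Without cluster 15 the mPRAT median was 0.02 and 0 of 24 were past 2-fold. Slc25a20, the mitochondrial acylcarnitine carrier, was past 2-fold in all 3, at 1.18, 1.04 and 1.12, and at 0.41 in mPRAT without cluster 15. Among the 22 partners and coregulators, Perm1, a PGC-1 and ERR induced regulator of oxidative muscle, was at 2.37 in mPRAT, or 1.05 without cluster 15, and past 2-fold in iBAT too. Tle3, a corepressor that opposes PRDM16, was lower in all 3 depots, at -1.21, -1.21 and -1.09, and at -0.79 in mPRAT without cluster 15.

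PPAR target genes past 2-fold in the cold were 5 of 25 higher and 2 lower in iBAT, 3 of 24 and 1 in mPRAT, and 7 of 23 and 2 in iWAT. The shares past 2-fold were 28% in iBAT, against 28.3% of all genes, 16.7% in mPRAT, against 23.8%, and 39.1% in iWAT, against 18.8%. In iBAT and mPRAT the list was thus at or below the background for both directions together. Of all genes, 10.3% were higher in iBAT, 10.7% in mPRAT and 4.44% in iWAT. The higher part of the list was above these shares in iBAT and iWAT and near it in mPRAT. Without cluster 15, 1 of 23 was higher and 1 lower in mPRAT. Fgf21, the hormone gene that PPARα drives, was at 3.26 in iBAT and, with cluster 15, 2.98 in mPRAT, where too few counts were left without it. Cyp4a14 was lower at -1.37 in iBAT. Cpt1b, the muscle-type carnitine palmitoyltransferase, was at 3.61 in iWAT. The 11 genes of the list of mitochondrial biogenesis factors had medians of 0.45, 0.34 and -0.18 in mPRAT, iBAT and iWAT, and of 0.09 in mPRAT without cluster 15. Ppif, in this list but encoding the mitochondrial cyclophilin and not itself a biogenesis factor, was at 1.45 in iBAT and at 1.82 in mPRAT, or 0.96 without cluster 15.

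Depots were compared at 6 months and room temperature. Between iBAT and iWAT 7 of 10 regulators were apart, all higher in iBAT, against 36.9% of all genes. Esrrg was 33.7-fold higher in iBAT, a log2 ratio of 5.07 (5.02 to 5.13), Ppara 22.6-fold, Ppargc1b 15.6-fold, Ppargc1a 8.87-fold, Esrra 4.78-fold, Esrrb 2.54-fold and Prdm16 2.16-fold. With 10 CPM added Esrrb was at a log2 ratio of 0.44 and not apart. Between mPRAT and iWAT 5 of 10 were apart, against 23%, with Esrrg 15.1-fold, Ppara 8.65-fold, Ppargc1b 6.70-fold, Ppargc1a 5.07-fold and Esrra 3.43-fold higher in mPRAT. Prdm16 differed by only 1.15-fold between these depots.

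Between mPRAT and lPRAT 6 of 10 were apart at 6 months, against 23% of all genes, and 6 of 10 at 2 months, against 30%. Prdm16 was 20.9-fold higher in mPRAT at 6 months and 26.6-fold at 2 months, Ppargc1a 17.4-fold and 18.4-fold, and Ppara 14.4-fold and 8.77-fold. Esrrg was 1163 CPM in mPRAT and 94.6 in lPRAT at 6 months, and 1519 and 67.0 CPM at 2 months. Ppargc1b was also apart at both ages, Esrra only at 6 months, and Rxrg only at 2 months, where lPRAT gave 29 Rxrg counts. The white depots lPRAT and iWAT differed in 2 of 10, against 19.7%: Prdm16 was 18.2-fold lower in lPRAT at -4.19 (-4.32 to -4.06), and Ppargc1a 3.43-fold lower at -1.78 (-1.91 to -1.65). Pparg, Ppard and Ppargc1b differed by less than 1.5-fold there.

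Between mPRAT and iBAT 3 of 10 were apart at 1 month, against 16.9% of all genes. The count was 5 under TMM scaling or among nuclei with at least 1000 genes and 1 by the mean over nuclei. The share of all genes in these settings is not given. There were 2 of 10 at 2 months, against 16.4%, and 3 of 10 at 6 months, against 21.7%. All were lower in mPRAT. At 6 months they were Ppara at -1.39 (-1.40 to -1.37), Ppargc1b at -1.22 (-1.23 to -1.20) and Esrrg at -1.15 (-1.17 to -1.14), the last at -0.87 by the mean over nuclei. In the cold 2 of 10 were apart, Esrrb at -1.28, or -0.99 with 10 CPM added, and Esrrg at -1.05, against 20.6%, and 6 of 10 without cluster 15, against 29.6%. That last count sets mPRAT without its cold cluster against iBAT with its own cold cluster kept. Between mPRAT and iWAT in the cold 5 of 10 were apart, against 34.4%, and 2 of 10 without cluster 15, against 25.3%.

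The fixed lists were read between the same depots. For ERR and PGC-1 target genes, 21 of 25 were higher in iBAT than in iWAT by 2-fold and 0 lower, with a median of 2.01 against 0.09 over all genes, 17 of 25 in mPRAT over iWAT with a median of 1.36, and 11 of 25 in mPRAT over lPRAT with 1 lower. The list's shares past 2-fold were 84% in iBAT over iWAT, against 36.9% of all genes, 68% in mPRAT over iWAT, against 23%, and 48% in mPRAT over lPRAT, against 23%. Cox7a1, for the heart and muscle isoform of a cytochrome oxidase subunit, was at 8.13 in iBAT over iWAT. PPAR target genes had 12 of 24 higher in iBAT than in iWAT and 4 lower, 66.7% of the list against 36.9% of all genes. Of all genes, 19.1% were higher and 17.8% lower there. Cpt1b at 7.15 and Cidea, a lipid droplet gene of brown fat, at 5.91 were among the higher. Cidec, the lipid droplet gene of white fat, at -2.60 was among the lower. In mPRAT over iWAT 12 of 23 PPAR target genes were higher and 1 lower, 56.5% against 23% of all genes. In mPRAT over lPRAT 11 of 23 were higher and 1 lower, 52.2% against 23%. Between lPRAT and iWAT the ERR and PGC-1 list had 1 of 24 higher and 0 lower, 4.17% against 19.7% of all genes.

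Adipocyte-like nuclei fell into 9 clusters, made on genes that left out the 10 regulators and the target lists, and the levels above also reflect how a library's nuclei were spread over them. Cluster 4, with Cyp2e1, Retn and Cfd among its leading genes, had at least 50 nuclei in every library. In it Ppara was 842, 530 and 500 CPM in mPRAT at 1, 2 and 6 months, 480 in cold mPRAT, 460 in iWAT and 454 in cold iWAT. Clusters 0 and 1 held most room-temperature iBAT nuclei, with Ppara at 4695 to 9306 CPM. In mPRAT at 6 months, 33.3% of the adipocyte-like nuclei were in cluster 1 and 40.6% in cluster 4, and Esrrg was 2663 CPM in the former and 321 in the latter. Prdm16 was less far apart in the same clusters, at 985 and 591 CPM.

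Within a cluster, some depot differences were smaller and others were not. In cluster 1, mPRAT over iBAT at 6 months had log2 ratios of -0.16 for Ppara, -0.08 for Ppargc1b and -0.03 for Esrrg, where the full adipocyte-like sums had -1.39, -1.22 and -1.15. In cluster 4 the same genes were at -0.97, -0.67 and -0.73, and in cluster 6 at -0.69, -0.70 and -0.18. In cluster 5 Ppara was at -0.96 and Ppargc1b at -0.41, and Esrrg was 120 CPM in mPRAT and 240.5 CPM in iBAT. In cluster 0, with 82 mPRAT nuclei, they were at 0.05, 0.05 and 0.54, and in cluster 2, with 50, at -0.63, 0.19 and 0.47, so that Esrrg was higher in mPRAT in these clusters. In cluster 5, the main cluster of the 6-month room-temperature libraries of lPRAT and iWAT, led by Nnat, Tshr and Npr3 among others, Prdm16 was 24.96 CPM in lPRAT and 570.4 CPM in iWAT, a log2 ratio of -4.51. The ratio was -1.26 in cluster 4 and -2.39 in cluster 12. Prdm16 in cluster 5 was 180 CPM in mPRAT and 210 CPM in iBAT. In the same cluster Ppara was 120 CPM in lPRAT and 142 in iWAT, and Ppargc1a was 35.2 and 113 CPM.

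Age was then compared within clusters. From 1 to 6 months in mPRAT, clusters 0, 4 and 6 gave Ppara log2 ratios of -0.76, -0.75 and -1.06, Pparg 0.74, 0.68 and 0.67, and Ppargc1a 1.78, 1.68 and 2.42. Esrrg was at 0.66, 0.19 (-0.02 to 0.40) and 0.19 in them, opposite in sign to the -0.38 of the full sum, and the share of mPRAT nuclei in cluster 4 was 9.31% at 1 month and 40.6% at 6 months. Of the other regulators lower in the full mPRAT sum, Prdm16 was at -0.41, 0.24 (0.09 to 0.40) and -0.31 in these clusters, Ppargc1b at 0.09 (-0.01 to 0.19), 0.13 (-0.03 to 0.29) and -0.17, and Esrra at 0.30 (-0.02 to 0.61), -0.40 and -0.07 (-0.26 to 0.13). Ppard was lower in each of them, from 108 to 68.4, 176 to 63.6 and 123 to 82.5 CPM. Rxrg went from 40.7 to 54.0, 29.3 to 28.1 and 41.3 to 32.9 CPM. From 2 to 6 months Ppargc1a was again higher in mPRAT in cluster 4, at 0.98, and cluster 6, at 0.74, and was at -0.20 and 0.07 in clusters 0 and 1. In iBAT from 1 to 2 months Ppargc1a was at 1.30 in cluster 0, 1.05 in cluster 1 and between 0.54 and 1.08 in clusters 4, 6, 9 and 12. From 2 to 6 months it was at -0.53 and -0.17 in clusters 0 and 1 of iBAT and at 0.96 and 1.04 in the smaller clusters 4 and 5. It went from 610 to 818 CPM in cluster 6 and from 1051 to 1164 CPM in cluster 9, which held 16.5% of the 6-month iBAT adipocyte-like nuclei.

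In cold iWAT, Ppara was at -0.02 in cluster 4 and -0.32 in cluster 5, against 1.20 for the full sum. Cluster 4 held 28.6% of iWAT adipocyte-like nuclei at room temperature and 56.8% in the cold, and 67 and 94 cold nuclei fell in clusters 2 and 6, where Ppara was 4803 and 3275 CPM and Esrrg 4170 and 3388 CPM. Esrra was at 1.51 in cluster 4 and 0.86 in cluster 5. Esrrg was at 1.15 in cluster 4 and at -0.39 in cluster 5, against 2.35 for the full sum, and Ppargc1b at 0.36 and 0.29, against 1.13. Prdm16 was at -1.20 in cluster 5, from 570.4 to 248 CPM, and at -0.20 in cluster 4. Within the clusters of cold iBAT, Ppara was at -0.84 in cluster 2 and -0.93 in cluster 1, Ppard at 1.63 and 1.41 and Esrrb at 1.81 (0.26 to 4.09) and 3.04, although cluster 2 had only 89 room-temperature nuclei, with 3 Esrrb counts, and cluster 1 only 56 cold ones. In cluster 4, with 164 and 126 nuclei, Ppara was at -0.42, Ppard at 0.26 and Esrrb at 0.51 (-1.25 to 2.61), all under 2-fold. In cold mPRAT, cluster 15 had 2225 CPM of Ppargc1a and 36.7 CPM of Esrrb, and the 142 nuclei of cluster 2 in the same library had 2765 and 34.6 CPM. At room temperature the 50 nuclei of cluster 2 had 1094 CPM of Ppargc1a and 8.44 CPM of Esrrb, the latter from 3 counts, which gives cold ratios of 1.34 (1.18 to 1.50) and 2.03 (0.33 to 4.40) outside cluster 15. Cluster 4 of that library had 292 CPM of Ppargc1a against 287 CPM at room temperature, and its cluster 6 had 1092 against 1181 CPM.

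**Figure D3:**
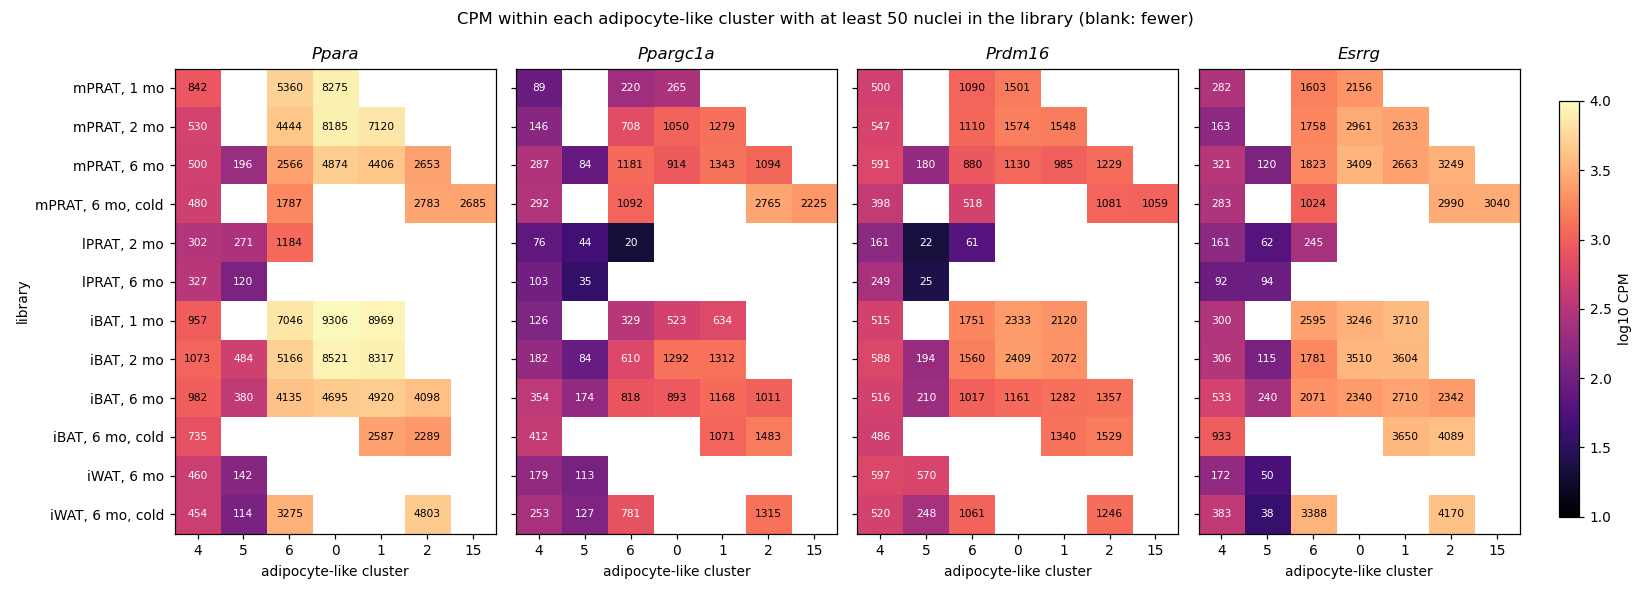
Each panel gives the CPM of 1 gene by adipocyte-like cluster (columns, numbered) and library (lines), coloured by log10 CPM. Clusters 0, 1, 2, 4, 5, 6 and 15 are drawn, where they had at least 50 nuclei in the library. Clusters 9 and 12 are not drawn, although cluster 12 held 85.0% of the adipocyte-like nuclei of lPRAT at 2 months. Ppara stays near 500 CPM in cluster 4 of mPRAT and iWAT at 6 months, while Prdm16 in cluster 5 goes from 24.96 CPM in lPRAT at 6 months to 570.4 CPM in iWAT.

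Nuclei with a Ucp1 UMI, after thinning every nucleus to 1000 UMIs, were 72 of 2635 in cold iWAT, where Ppara was at a log2 ratio of 3.29, Esrrg 3.26, Ppargc1b 3.00 and Pparg -0.55 over the nuclei without one. In mPRAT at 6 months the 476 such nuclei had Ppargc1a at 1.63 and Ppara at 1.31, and in iBAT at 6 months Ppargc1a was at 0.56 and Ppara at 0.23. A Ucp1 UMI was found at this depth in 2.73% (2.14 to 3.43%, exact Clopper-Pearson) of adipocyte-like and 1.28% (0.265 to 3.70%) of macrophage-like nuclei of cold iWAT, in 14.3% and 0.725% in mPRAT at 6 months and in 30.7% and 7.14% in iBAT at 6 months. In cold iWAT these intervals overlapped, so the share alone did not stand clear of that background, and a single Ucp1 UMI does not by itself mark a cell that expresses the gene. Nor does a nucleus without a Ucp1 UMI at 1000 UMIs necessarily lack it. Before thinning, 47.2% of iBAT and 30.7% of mPRAT adipocyte-like nuclei at 6 months had a Ucp1 UMI. The ratios of iBAT and mPRAT are therefore not set against each other. By cluster, Ucp1 in cold iWAT was 798 CPM in cluster 2 and 322 CPM in cluster 6, against 5.28 and 0.698 CPM in clusters 4 and 5.

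At the same thinned depth, a Ppara UMI was found in 94.3% of iBAT adipocyte-like nuclei at 6 months and in 35.7% of the 84 macrophage-like nuclei deep enough there, a class that should hold little of it. Before thinning, the median depths were 2151 and 821 UMIs. In lPRAT at 6 months the shares were 11.8% and 0.294%, and in iWAT 17.5% and 2.72%. The part of free RNA in the levels of other classes was not tested. For Prdm16 in lPRAT at 6 months the share was 3.27% of adipocyte-like nuclei and 0.196% of macrophage-like nuclei.

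The regulators were next compared across the 14 named classes, in libraries with at least 50 nuclei of the class. Ppara, Pparg, Rxrg, Ppargc1a, Ppargc1b, Prdm16, Esrra and Esrrg were each higher in adipocyte-like than in ASPC-like nuclei in 12 of 12 libraries, with intervals that left out 0 and median log2 ratios from 2.08 for Esrra to 3.22 for Ppargc1b. Ppard was higher in 6 and lower in 3, and its highest class median among classes in several libraries was 203 CPM in mural-like nuclei, the cells of vessel walls. Pparg was also at 1439 to 3215 CPM in endothelial-like nuclei of 11 libraries and at 1247 to 2304 CPM in epithelial-like nuclei of 4 mPRAT libraries. The class pattern uses the same nuclei that were sorted into classes, so it is a description. The share of all genes that were higher than in ASPC-like nuclei by the same rule is not given.

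Esrrg had its highest class level outside fat, in kidney tubule-like nuclei. In kidney tubule-like nuclei of mPRAT at 1 and 2 months it was 3245 and 5617 CPM, above the adipocyte-like level of 1519 CPM in both libraries. It was 1852 CPM in skeletal muscle-like nuclei of iBAT at 2 months, below the adipocyte-like 3037 CPM there. In adrenal cortex-like nuclei of mPRAT at 6 months it was 1591 and 1050.2 CPM without and with cold. The adipocyte-like levels in those libraries were 1163 and 1943 CPM. Ppara was 2034 and 1425 CPM in the kidney tubule-like nuclei. Esrrb was 61.4 CPM in the skeletal muscle-like nuclei, from 86 counts. Prdm16 was 952 CPM and Rxrg 261 CPM in 51 Schwann-like nuclei of mPRAT at 1 month, the latter from 17 counts, and Rxrg was 77.6 CPM in macrophage-like nuclei of mPRAT at 6 months, where the adipocyte-like level was 30.7.

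**Figure D4:**
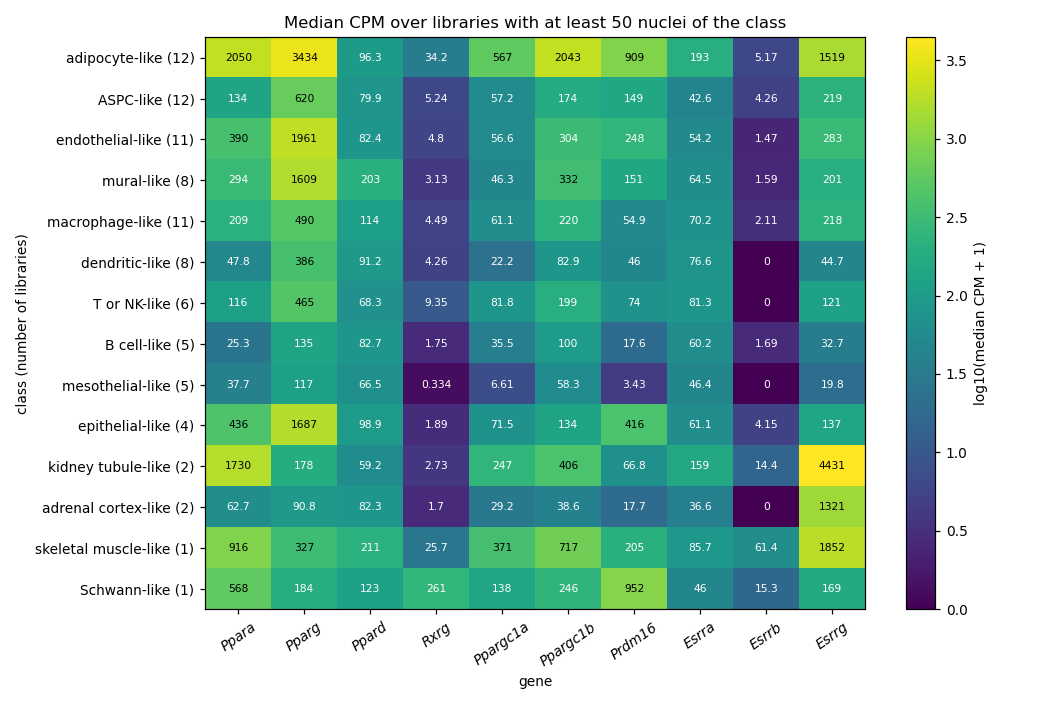
Median CPM over libraries is written in each cell and coloured as log10(CPM + 1), for each gene and each class with at least 50 nuclei in a library; the number of libraries is in brackets. Adipocyte-like nuclei hold the highest median of Ppargc1a at 567 CPM and of Ppargc1b at 2043 CPM, and kidney tubule-like nuclei that of Esrrg at 4431 CPM.

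Genes most like each regulator were sought by Pearson r of log2(CPM + 1) over the 12 adipocyte-like sums, among 8377 genes. These points share depots, depth and cluster makeup, so r is a description. Ppargc1a was nearest to Nup54, a nuclear pore gene, at r = 0.997, then to Nr6a1 at 0.976 and the kinase gene Sik3 at 0.964. Esrrg was nearest to Cpt1b at 0.993, and Ppargc1b to Acaa2, for a thiolase of fatty acid oxidation, at 0.990. Ppara was nearest to Gm35853 at 0.981, Esrrb to Arhgef19 at 0.980 and also close to Epas1, for the oxygen-sensing factor HIF-2α, at 0.969. Prdm16 was nearest to Ormdl3 at 0.967, Esrra to Pald1 at 0.951, Rxrg to Jmjd1c at 0.933, Pparg to D16Ertd472e at 0.906 and Ppard to Zfp839 at 0.851.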

How the data were processed

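The values used are the deposited UMI counts, 1 per gene and nucleus barcode, which the authors made from 10x Single-Cell 3′ libraries of sorted nuclei with Cell Ranger 7.0.0, per the file headers. The build is mm10, per the submitters' processing notes. Whether intronic reads were counted is not given in the sources used here.

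Limits of 500 UMIs and 300 genes or more, and of 10% mitochondrial UMIs or less, left 96649 of 119035 barcodes after the highest scrublet doublet scores (scanpy 1.11.5) were removed at 0.8% per 1000 nuclei. All libraries were clustered together with no batch correction, on 2000 variable genes, 30 principal components, 15 neighbours and Leiden resolution 1. The 29 clusters were named from marker lists, and 4 of them, with 1436 nuclei, stayed unnamed. A marker gate that calls a nucleus from at least 2 marker UMIs agreed for 63187 of the 65029 adipocyte-like nuclei. Counts were summed per class and library and divided by the total. Ratios are plain CPM ratios, with a count of 0 set to 3 counts, where both libraries together gave 20 counts or more. Intervals are exact Poisson for a CPM, exact conditional binomial for a ratio and exact Clopper-Pearson for a share. The script for ratios was tested on simulated counts. Gene positions are from GENCODE M21.

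The text names all 10 regulators, up to 3 genes of each list and direction with the largest ratios past 2-fold, and the 3 genes most like a regulator; some genes that this rule takes are not reported here. The lists were receptor partners and coregulators (22 genes), PPAR target genes (25), ERR and PGC-1 target genes (26) and mitochondrial biogenesis factors (11). Regulators and lists were chosen with earlier results of these data known. With 1 library per group, replicates could not be compared. Alternatives covered TMM scaling (edgeR 4.0.16), the mean over nuclei, the nucleus filters, the gate, added CPM and, chosen after the data were seen, leaving out cluster 15, which held most cold mPRAT adipocyte-like nuclei.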

Additional observations from a re-analysis of the deposited data

Results flagged for a closer look

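In 4 cases a regulator's ratio differed in sign between depots under the same contrast, with both intervals clear of 0 and the ratios at least 2-fold apart, and none of these differences was tested, since each rests on 1 library per group. In the cold, Ppara had a log2 ratio of -1.08 in iBAT and 1.20 in iWAT. Pparg was at -0.45 in iBAT and 0.56 in iWAT, and Ppargc1b at -0.15 and 1.13. Under TMM scaling 2 of the 4 cases were lost: Ppargc1b was at 0.06 in iBAT, with no difference in sign, and Pparg at -0.24 and 0.72, less than 2-fold apart. Within iBAT clusters 1 and 2 the Ppargc1b ratio was 0.00 (-0.09 to 0.09) and 0.05 (-0.06 to 0.17). Within iWAT clusters 4 and 5 Ppara was at -0.02 and -0.32. From 2 to 6 months Rxrg was at -0.77 in iBAT and 1.41 in lPRAT, where the younger library gave 29 counts.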

How the results depend on the processing

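Of 200 log2 ratios, 60 were past 2-fold, and none of those changed sign in any of 1630 recomputed values, though 36 of the values, from 28 ratios, crossed the 2-fold limit and 49 values, from 34 of the smaller ratios, changed sign. Counts of regulators apart by 2-fold that moved by more than 1.5 times are given next, and smaller moves of 1 regulator occurred in other comparisons, such as 2 in place of 3 for cold iBAT and 3 in place of 2 for mPRAT over iBAT in the cold under TMM scaling. With at least 1000 genes per nucleus the count was 0 for mPRAT from 2 to 6 months, where Ppara was no longer apart, and 5 for mPRAT over iBAT at 1 month, where TMM scaling also gave 5 and the mean of nuclei gave 1. With 10 CPM added it was 1 for iBAT from 1 to 6 months and 1 for mPRAT over iBAT in the cold. Without cluster 15 it was 1 for cold mPRAT, 6 for mPRAT over iBAT in the cold and 2 for mPRAT over iWAT in the cold. Except without cluster 15, the share of all genes past 2-fold in these settings is not given. The cause of these moves was not tested. TMM scaling moved every gene's log2 ratio by 0.23 for mPRAT from 1 to 2 months, 0.20 from 1 to 6 months, 0.13 for iBAT from 1 to 6 months, 0.21 for cold iBAT, 0.16 for cold iWAT, -0.19 for mPRAT over iWAT in the cold, -0.19 for mPRAT over iBAT at 1 month, -0.12 in the cold, -0.12 for mPRAT over iWAT at 6 months and 0.12 for mPRAT over lPRAT at 2 months. Low counts limited Esrrb and Rxrg most. No paired analysis was possible, since each group had 1 library and no label ties libraries to the same mice.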
